A study of Mus musculus with 4 samples.

Results

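The genes described here are 38 genes of glucose metabolism, chosen by symbol to cover glucose transport, glycolysis, the exchange of lactate, the entry of pyruvate into mitochondria and the pentose phosphate pathway. Of these, 33 had at least 1 probe set that the array annotation assigns to that gene alone, out of 18194 genes with such a probe set. The other 5, Gpi1, Eno1, Pfkfb1, Mpc2 and G6pdx, were not analysed here. RNA came from MC3T3-E1, a mouse preosteoblast line that the labels trace to newborn C57BL/6 calvaria, the bones of the skull cap. The groups were cells kept for 6 days in osteogenic medium, 6 days in normal medium, 3 days in osteogenic medium and 3 days in normal medium, with 1 Affymetrix GeneChip mouse expression array for each. Both media were MEM α with fetal bovine serum at 10%, and osteogenic medium also held ascorbic acid 2-phosphate at 150 µM and beta-glycerophosphate at 10 mM. The study set out to find genes associated with osteogenic differentiation, so the medium comparison at each day carries that question. All cells belong to 1 established line.

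Glycolysis splits glucose into pyruvate in the cytosol, with hexokinase, phosphofructokinase and pyruvate kinase as its irreversible steps. Pyruvate is either reduced to lactate and exported or carried into mitochondria and oxidised by the pyruvate dehydrogenase complex, which pyruvate dehydrogenase kinases switch off. The pentose phosphate pathway branches off after the first step and supplies NADPH and ribose. Osteoblasts are known for taking up much glucose through GLUT1, the product of Slc2a1, and for releasing much of it as lactate even when oxygen is present.

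Signals are linear probe set intensities, brought to a common 75th percentile on all arrays. Signals under 57.8, the median of all probe sets, were treated as a floor, because the table used here holds no detection calls. A gene is given by its brightest probe set unless another is named. With 1 array per group no difference between 2 arrays has a replicate error or a p-value, and precision is limited by having 4 arrays. An error for a single log2 medium difference was taken from how far probe sets of 1 gene disagree. It was 0.22 at day 6 and 0.24 at day 3 and holds no biological spread. In bulk RNA, a lower signal from fewer cells of a kind cannot be told apart from less RNA per cell. The osteogenic array of day 6 had a signal of 739 for the 5′ control of small-subunit ribosomal RNA, against 5137 on the normal array of day 6, and those of day 3 had 8406 in osteogenic and 9193 in normal medium. The part of this in the day 6 values was not tested. The 3′ to 5′ signal ratio of the Gapdh controls lay between 0.756 and 0.769 on the 4 arrays. Of 10 osteoblast markers, 7 had a probe set annotated to that gene alone, and all 7 were above the floor on every array.

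Slc2a3, Eno2 and Slc2a1 were more than 2-fold higher in osteogenic medium at day 6, and Slc2a3 and Eno2 were so at day 3. Slc2a3 and Slc2a1 encode the glucose transporters GLUT3 and GLUT1, and Eno2 encodes gamma enolase, an isoform best known from neurons. Thus 3 of 31 measured members were at least 2-fold higher at day 6, where 4.18% of all 11902 measured genes were, and 2 of 31 at day 3, where 1.99% of 11862 were. At least 2-fold lower were 0 of 31 at day 6, against 2.78% of all genes, and 0 of 31 at day 3, against 1.58%. At day 6, 21 of the 31 lay above zero, against 51.2% of all genes, with a median log2 difference of 0.09. At day 3, 18 of the 31 did, against 51% of all genes, with a median of 0.03. Over all measured genes the medians were 0.01 at day 6 and 0.01 at day 3. The median size of a member's log2 difference, whatever its sign, was 0.29 at day 6 and 0.26 at day 3, against 0.28 and 0.25 over all genes, so as a set the members differed about as much as other genes did. Of the members short of 2-fold, the nearest to it were Pgd at day 6 (log2 difference 0.99) and Pfkl at day 3 (-0.91). Of those past 2-fold, the smallest differences were Slc2a1 at day 6 (1.20) and Eno2 at day 3 (1.39). Aldoc, a brain isoform of aldolase, and Slc16a3, which encodes the lactate exporter MCT4, had no probe set above the floor on any array.

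**Figure D1:**
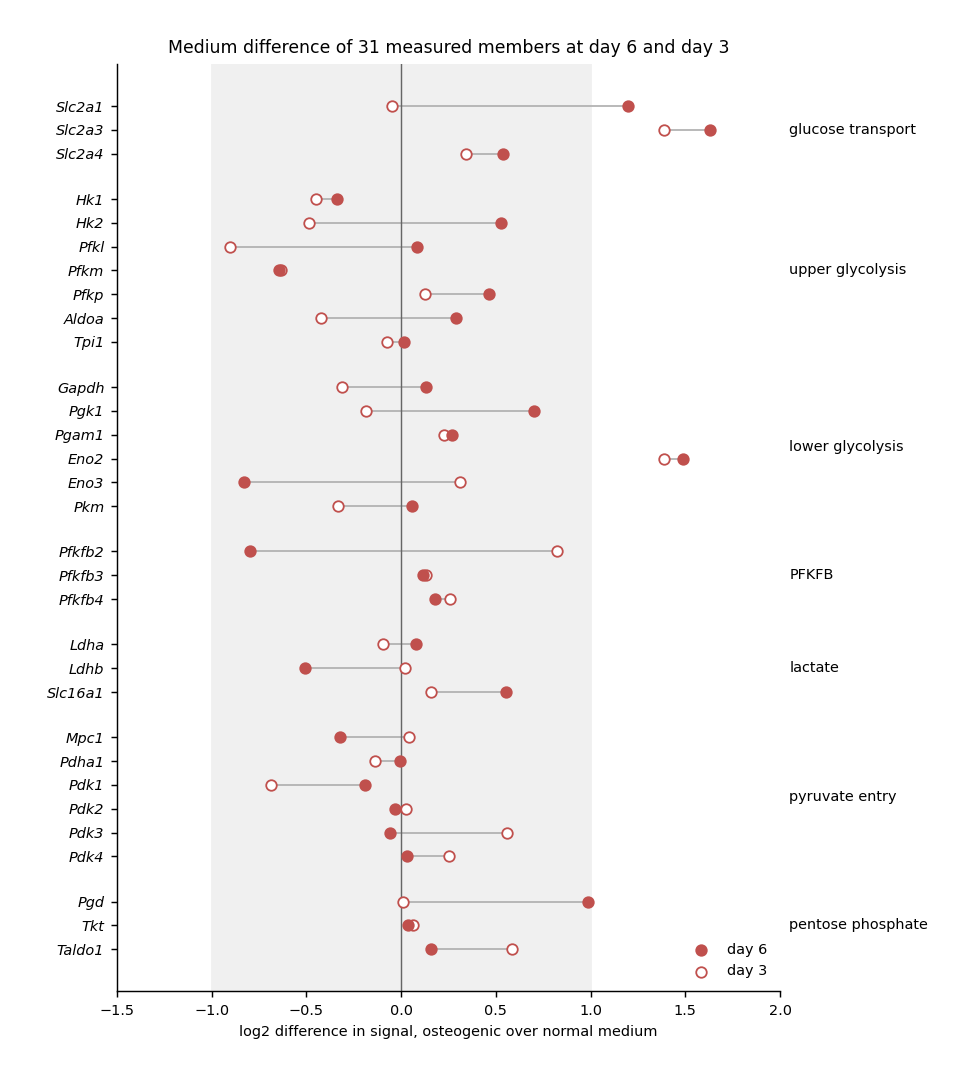
Log2 difference in signal between osteogenic and normal medium for the 31 measured members, grouped by role, with filled circles for day 6 and open circles for day 3; each circle compares 2 single arrays, and the grey band marks differences under 2-fold. Slc2a3, Eno2 and Slc2a1 lie right of the band at day 6, Slc2a3 and Eno2 at day 3, and no member lies left of it.

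The start regions of the most different members are shown because they can be read for sequence features that the array values do not hold. The windows come from RefSeq on GRCm38.p6, run from 250 bases before to 50 after a gene's start, and were available for 36 of the 38 members, not for Slc2a3 or Slc2a4. After Slc2a3, the members with the highest day 6 difference were Eno2 (chr6:124769624-124769923, minus strand), Slc2a1 (chr4:119108495-119108794, plus strand), Pgd (chr4:149166656-149166955, minus strand, the upstream of 2 windows) and Pgk1 (chrX:106186850-106187149, plus strand). They are printed 5′ to 3′ in the direction of the gene, and capitals mark the core of the hypoxia response element, ACGTG or GCGTG, on either strand (CACGT and CACGC where the match is on the other strand).
Eno2: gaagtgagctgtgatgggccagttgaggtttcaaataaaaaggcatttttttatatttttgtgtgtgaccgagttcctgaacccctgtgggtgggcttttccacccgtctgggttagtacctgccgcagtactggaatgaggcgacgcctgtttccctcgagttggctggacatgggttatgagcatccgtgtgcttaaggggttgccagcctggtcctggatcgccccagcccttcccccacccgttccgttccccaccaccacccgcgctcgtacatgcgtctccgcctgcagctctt
Slc2a1: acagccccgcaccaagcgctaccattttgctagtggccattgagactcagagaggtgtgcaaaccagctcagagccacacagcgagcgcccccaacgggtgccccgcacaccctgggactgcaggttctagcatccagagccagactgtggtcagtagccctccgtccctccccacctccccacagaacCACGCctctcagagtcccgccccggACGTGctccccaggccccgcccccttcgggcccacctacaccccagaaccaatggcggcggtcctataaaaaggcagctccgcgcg
Pgd: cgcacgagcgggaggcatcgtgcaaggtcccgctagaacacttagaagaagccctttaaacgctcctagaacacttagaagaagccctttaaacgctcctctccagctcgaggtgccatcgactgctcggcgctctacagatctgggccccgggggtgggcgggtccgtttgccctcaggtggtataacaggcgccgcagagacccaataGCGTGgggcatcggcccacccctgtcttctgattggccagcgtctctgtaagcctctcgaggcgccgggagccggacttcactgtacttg
Pgk1: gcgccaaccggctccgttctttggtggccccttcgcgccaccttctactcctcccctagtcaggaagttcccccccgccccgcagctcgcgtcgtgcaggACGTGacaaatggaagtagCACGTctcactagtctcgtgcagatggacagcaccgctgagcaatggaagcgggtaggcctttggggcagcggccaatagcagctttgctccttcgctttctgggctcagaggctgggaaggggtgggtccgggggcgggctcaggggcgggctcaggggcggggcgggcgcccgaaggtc
The Pgk1 window held ACGTG at 2 places and the Slc2a1 window held each motif once. The Pgd window shown held GCGTG once, its other window held neither motif, and the Eno2 window held neither. Among all 57 member windows, 43 (75.4%) held at least 1 of the motifs, against 14380 of 32851 windows of all genes (43.8%). The member windows belong to 36 genes, among them the 5 not analysed on the array, and all windows to 27025 genes. Some windows of a gene overlap, as those of Eno1 and Aldoa do, so a site can be counted more than once. Both motifs contain CG, and the member windows had a median G and C content of 60.7%, against 52.7% over all windows, so the shares are a description and say nothing about binding. ACGTG alone was found in 38.6% of member windows and 19.6% of all windows, and GCGTG alone in 57.9% and 32.4%, a window with both being counted in each.

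Of the glucose transporters, Slc2a1 had a signal of 2734 in osteogenic and 1191 in normal medium at day 6, and 1577 in osteogenic and 1632 in normal medium at day 3. Its signal was thus highest on the osteogenic day 6 array and lowest on the normal day 6 array, with little between the media at day 3. The day 6 difference was 2.30-fold, and its 3 probe sets gave log2 differences of 0.91 to 1.20 at day 6 and -0.30 to -0.05 at day 3. The difference between media changed by 1.25 on the log2 scale from day 3 to day 6.

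Slc2a3 had a signal of 250.2 in osteogenic and 80.9 in normal medium at day 6, and 165 in osteogenic and 63.0 in normal medium at day 3. Both osteogenic arrays lay above both normal arrays, which were close to the floor. The folds were 3.09 at day 6 and 2.62 at day 3. A second, dimmer probe set of Slc2a3 gave log2 differences of at least 0.82 at day 6 and 0.07 at day 3. At day 6 this probe set was below the floor in normal medium. The day 3 difference of Slc2a3 thus rests on 1 probe set. With the floor at the 60th percentile, the day 3 value of the brightest probe set was 0.46, and with averaged probe sets 0.73. Slc2a4, which encodes the insulin-responsive transporter GLUT4 of muscle and fat, had 135 in osteogenic and 93.3 in normal medium at day 6, and 73.2 in osteogenic medium at day 3, when it was below the floor in normal medium. It was 1.45-fold higher at day 6 and at least 1.27-fold higher at day 3, both under 2-fold.

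The upper steps of glycolysis, from hexokinase to triose phosphate isomerase, lay mostly below zero at day 3 and mostly above it at day 6. Of 7 measured genes, 5 lay above zero at day 6, with a median log2 difference of 0.09, and 1 lay above zero at day 3, with a median of -0.45. None passed 2-fold at either day. Hk2, the inducible hexokinase, had 960.3 in osteogenic and 666 in normal medium at day 6, and 655 in osteogenic and 918 in normal medium at day 3. Its log2 difference was thus 0.53 at day 6 and -0.49 at day 3, on opposite sides of zero and both beyond the probe error. Hk2 has 1 probe set, so no other checks it. Hk1, the housekeeping hexokinase, was at -0.34 at day 6 and -0.45 at day 3 by its brightest probe set, and at -0.25 and 0.20 by its other one.

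The phosphofructokinase isoforms lay on different sides of zero. Pfkl, the liver-type subunit, had 2248 in osteogenic and 2118 in normal medium at day 6, and 1240.3 in osteogenic and 2323 in normal medium at day 3. The osteogenic day 3 array was low while the other 3 lay close together. Pfkl was 1.87-fold lower in osteogenic medium at day 3, and a second bright probe set gave a log2 difference of -0.41, but another near the floor gave 0.36. Pfkm, the muscle-type subunit, had 758 in osteogenic and 1186 in normal medium at day 6, and 908 in osteogenic and 1409 in normal medium at day 3. It was 1.56-fold lower at day 6 and 1.55-fold lower at day 3, so both osteogenic arrays lay below both normal arrays. Pfkm has 1 probe set. Pfkp, the platelet-type subunit, lay on the other side, with log2 differences of 0.47 at day 6 and 0.13 at day 3.

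Aldoa, the aldolase that splits fructose 1,6-bisphosphate, reversed its direction between days in all its probe sets. Its brightest probe set gave 13766 in osteogenic and 11276 in normal medium at day 6, and 9671 in osteogenic and 12946 in normal medium at day 3. All 5 of its probe sets lay above zero at day 6, with log2 differences of 0.29 to 0.72, and all 5 lay below zero at day 3, at -0.77 to -0.34. All 5 are of the kind that Affymetrix marks as able to bind similar transcripts as well, so they are not independent of each other. Tpi1, triose phosphate isomerase, stayed between 10146 and 11146 on all arrays, with log2 differences of 0.02 at day 6 and -0.08 at day 3.

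In the later steps of glycolysis, 5 of 6 measured genes lay above zero at day 6 and 3 of 6 at day 3, with medians of 0.20 and 0.02. Eno2 had a signal of 382 in osteogenic and 136 in normal medium at day 6, and 155 in osteogenic and 59.4 in normal medium at day 3. It was higher in osteogenic medium at both days, 2.80-fold at day 6 and 2.61-fold at day 3, and higher at day 6 than at day 3 in both media, by 1.30 (log2) in osteogenic and 1.20 in normal medium. The normal day 3 signal was next to the floor, and a floor at the 60th percentile gave a day 3 log2 difference of 0.38. Eno2 has 1 probe set, so no other checks it.

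Eno3, the muscle enolase, had 590.0 in osteogenic and 1048 in normal medium at day 6, and 1176 in osteogenic and 948 in normal medium at day 3. The osteogenic day 6 array stood below the other 3, and the log2 difference was -0.83 at day 6 and 0.31 at day 3. Eno2 and Eno3 thus lay on opposite sides of zero at day 6 and on the same side at day 3. Eno3 too has 1 probe set.

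Pgk1, phosphoglycerate kinase, had 16022 in osteogenic and 9866 in normal medium at day 6, and 10072 in osteogenic and 11443 in normal medium at day 3. Its 3 probe sets gave log2 differences of 0.64 to 1.08 at day 6. At day 3 they split, with -0.18 and -0.32 for the 2 brighter ones and 0.86 for the third. Gapdh could be read only from the 3 control probe sets of the array, since its other 3 probe sets are annotated to several genes. They gave log2 differences of 0.12 to 0.15 at day 6 and -0.33 to -0.31 at day 3. Gapdh is often used as a reference gene, and in these cells its brightest signal was 39335 in osteogenic and 35902 in normal medium at day 6, and 36666 in osteogenic and 45558 in normal medium at day 3. Pkm, the pyruvate kinase of most tissues, had a similar course, with 0.06 at day 6 and -0.34 at day 3, while Pgam1, phosphoglycerate mutase, was at 0.27 at day 6 and 0.22 at day 3.

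**Figure D2:**
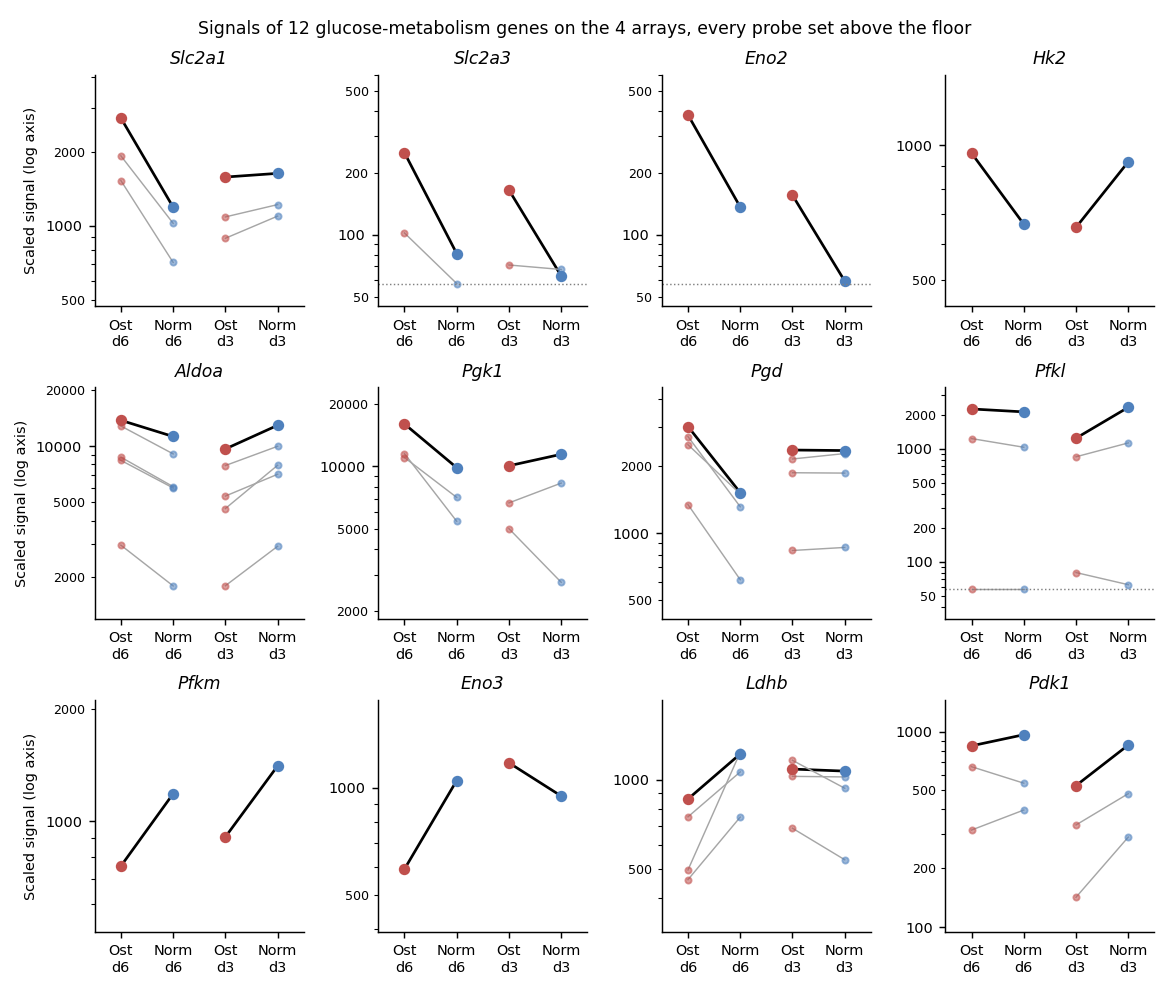
Scaled signal (log axis) of 12 members on each array, from left to right osteogenic day 6, normal day 6, osteogenic day 3 and normal day 3, in red for osteogenic and blue for normal medium. Large points joined in black are the brightest probe set, small points joined in grey the others above the floor, and the dotted line is the floor of 57.8, at which dimmer values are drawn; Slc2a1, Pgk1 and Pgd separate at day 6, Slc2a3, Eno2 and Pfkm at both days, and all 5 Aldoa probe sets cross over.

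The Pfkfb genes encode the bifunctional enzymes that set fructose 2,6-bisphosphate, the strongest activator of phosphofructokinase. Their signals were low. Pfkfb2, the heart isoform, had 79.6 in osteogenic and 138 in normal medium at day 6, and 128 in osteogenic and 72.2 in normal medium at day 3, so its log2 difference was -0.80 at day 6 and 0.82 at day 3. Its other probe sets gave -0.54 and 0.47 at day 6 and at least 0.01 at day 3, so the reversal is not shared by all of them. The change of its medium difference from day 3 to day 6, -1.62 by the brightest probe set, was -0.57 with averaged probe sets and -0.30 when the floor was raised to the 60th percentile. Pfkfb3, the inducible isoform, was at 0.12 at day 6 and 0.13 at day 3, and Pfkfb4 was at 0.18 and 0.26.

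By their brightest probe sets, the genes of lactate handling differed by less than 2-fold. Ldha, the lactate dehydrogenase subunit that favours lactate formation, lay between 17061 and 20002 on all arrays, with log2 differences of 0.08 at day 6 and -0.10 at day 3. Ldhb, the subunit that favours the return to pyruvate, had 862 in osteogenic and 1224 in normal medium at day 6, and 1088 in osteogenic and 1071 in normal medium at day 3. All 4 Ldhb probe sets lay below zero at day 6, from -1.32 (past 2-fold) to -0.50, and all 4 lay above zero at day 3, from 0.01 to 0.35. The lowest signals of Ldhb were thus on the osteogenic day 6 array with each probe set. Slc16a1, which encodes the monocarboxylate transporter MCT1, had 3185 in osteogenic and 2172 in normal medium at day 6, 1.47-fold higher, and 2650 in osteogenic and 2372 in normal medium at day 3, 1.12-fold higher.

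Of 6 measured genes for pyruvate entry and oxidation, 1 lay above zero at day 6 and 4 at day 3. By their brightest probe sets, all of them differed by less than 2-fold. Mpc1, a subunit of the mitochondrial pyruvate carrier, had 4392 in osteogenic and 5498 in normal medium at day 6 (log2 difference -0.32), and 5382 in osteogenic and 5230 in normal medium at day 3 (0.04). Pdha1, the catalytic subunit of pyruvate dehydrogenase, was at -0.01 at day 6 and -0.14 at day 3. Pdk1, a pyruvate dehydrogenase kinase induced by hypoxia, had 846 in osteogenic and 964 in normal medium at day 6, and 529.8 in osteogenic and 854 in normal medium at day 3. The osteogenic day 3 array was the lowest for all 3 Pdk1 probe sets above the floor, with log2 differences of -1.02 to -0.53 at day 3 and -0.34 to 0.28 at day 6. The other kinases differed in sign, with Pdk3 at -0.06 at day 6 and 0.56 at day 3, Pdk4 at 0.03 and 0.25, and Pdk2 at -0.03 and 0.03.

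In the pentose phosphate pathway, Pgd, the 6-phosphogluconate dehydrogenase that makes NADPH, had 3015 in osteogenic and 1519 in normal medium at day 6, and 2363 in osteogenic and 2351 in normal medium at day 3. It was 1.98-fold higher at day 6 and 1.01-fold higher at day 3. Of its 4 probe sets, all lay at 0.74 to 1.12 at day 6 and at -0.08 to 0.01 at day 3. From day 3 to day 6 its log2 signal differed by 0.35 in osteogenic and by -0.63 in normal medium, so the day 6 gap holds both a higher osteogenic and a lower normal signal. In the branch without NADPH, Tkt, transketolase, was at 0.03 at day 6 and 0.06 at day 3, and Taldo1, transaldolase, was at 0.16 at day 6 and 0.59 at day 3, where Pgd was at 0.01.

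**Figure D3:**
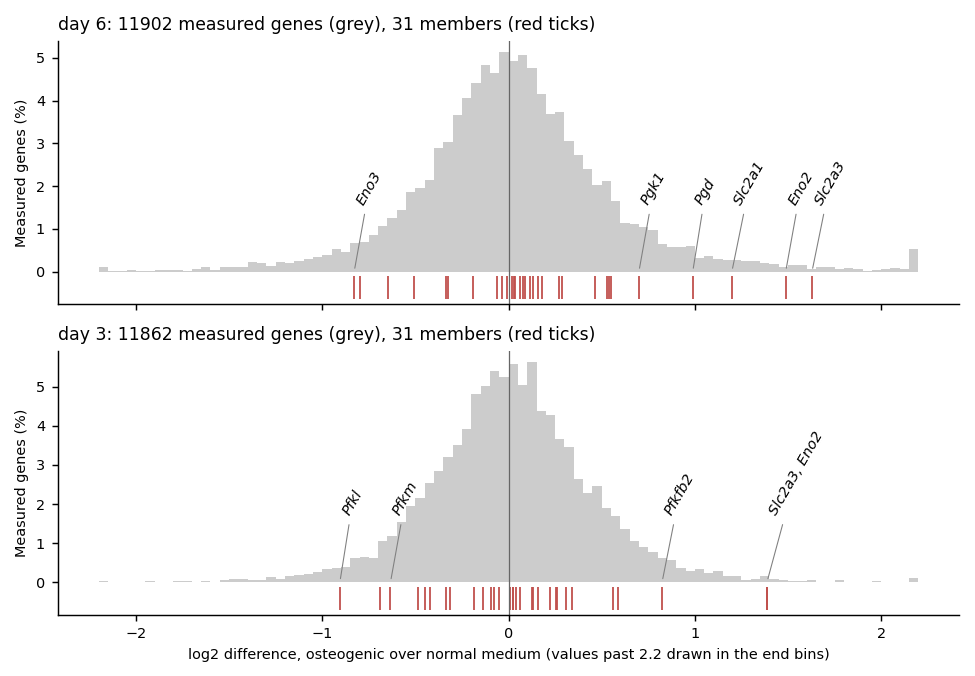
Distribution of the log2 medium difference over all measured genes (grey, percent of genes per bin), at day 6 above and day 3 below, with a red tick for each of the 31 measured members. Most ticks lie in the bulk of the genes, and Slc2a3, Eno2 and Slc2a1 lie in the upper tail at day 6, as Slc2a3 and Eno2 do at day 3.

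Signs at the 2 days were compared for all 31 measured members, whose medium differences come from separate arrays. They were not compared over all genes. The sign counts thus have no share beside them and do not show a trait of the members. Above zero at both days were 12 members and below zero at both days 4. Another 9 were above zero at day 6 and below it at day 3, among them Slc2a1, Hk2, Pfkl, Aldoa, Pgk1 and Gapdh, and 6 were below zero at day 6 and above it at day 3, among them Eno3, Ldhb and Pfkfb2. The change of the medium difference from day 3 to day 6 was at least 2-fold upward for Slc2a1 (1.25) and Hk2 (1.02), 2 of 31 members against 4.54% of 11260 genes. It was at least 2-fold downward for Eno3 (-1.14) and Pfkfb2 (-1.62), 2 of 31 against 3.23%. The change was above zero in 19 of 31 members, against 48.8% of all genes, and its median was 0.11, against -0.01 over all genes. Of the members, 15 had 2 or more measured probe sets, and these shared 1 sign in 11 members at day 6 and in 9 at day 3.

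Between days, 1 of 31 members was at least 2-fold higher at day 6 than at day 3 in osteogenic medium and 1 of 31 in normal medium, Eno2 both times, against 3.7% of 11948 genes in osteogenic and 0.741% of 11737 genes in normal medium. At least 2-fold lower were 0 of 31 in either medium, against 2.62% of all genes in osteogenic and 0.741% in normal medium. These comparisons use the same 4 arrays as the medium comparisons. In osteogenic medium the next highest were Slc2a4 (0.89), Pfkl (0.86) and Slc2a1 (0.79), and the lowest was Eno3 (-0.99). In normal medium all 7 measured genes of upper glycolysis lay below zero by their brightest probe sets, with a median of -0.20. Dimmer probe sets of Hk1 (0.30) and Pfkp (0.03) lay above it. The lowest of the 31 members in normal medium was Pgd (-0.63). Above zero were 16 of 31 members in osteogenic medium, with a median of 0.02, and 12 of 31 in normal medium, with a median of -0.13, against 49.9% and 47.7% of all genes.

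The design allows 1 test, an additive model with a term for medium and a term for day. It leaves 1 residual degree of freedom, and a medium effect that is unlike at the 2 days enters that residual. With limma's moderated variances, 0 of 31 members and 0 of 11260 genes (0%) had an adjusted p under 0.05, and with each gene's own variance the counts were again 0 and 0. An unadjusted p under 0.05 was found for 1661 genes (14.8%) and for 3 of 31 members, Slc2a3, Eno2 and Pfkm, with moderated variances. Averaged over both days, the log2 difference was 1.51 ± 0.18 (SE) for Slc2a3 and 1.44 ± 0.18 for Eno2, each with limma's adjusted p of 0.166. It was -0.64 ± 0.18 for Pfkm, with limma's adjusted p of 0.266. Each of the 3 had its direction in 2 of 2 days, which the choice by a low p in this fit already favours. For Slc2a1, which differed at 1 day, it was 0.57 ± 0.34 (limma's adjusted p 0.485).

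Some of the members are isoforms known from muscle or neurons, so markers of those cells were read on the same arrays. Of 10 skeletal muscle markers, Myog, Myod1, Myh1, Myh2, Myh4 and Tnnt3 were below the floor on all arrays. The other 4 passed it on 2 or more arrays, with Acta1 at 166 to 249 and Actn3 at 61.7 to 90.0 over the arrays, Ckm above the floor on 3 arrays and Pygm on the normal arrays only. Acta1 had log2 differences of -0.53 at day 6 and -0.41 at day 3, and Actn3 of -0.18 and 0.55. The summed signal over the list was 469 in osteogenic and 551 in normal medium at day 6. At day 3 it was 510.2 in osteogenic and 488 in normal medium. This sum and those of the neuron and leukocyte lists add signals without the floor, so they also hold genes below it. No direction is read from these sums. The part of muscle gene expression in the values of Pfkm, Eno3 and Slc2a4 was not tested. Of 6 neuron markers, Snap25 and Stmn2 were below the floor on all arrays, and the summed signal was 348 in osteogenic and 325 in normal medium at day 6, and 522 in osteogenic and 211 in normal medium at day 3. Tubb3, a neuronal tubulin also found in other cells, had 180.0 in osteogenic and 56.6 in normal medium at day 6 (below the floor), and 201 in osteogenic and 65.2 in normal medium at day 3, the same direction as Eno2 and Slc2a3. Map2 had log2 differences of 0.25 at day 6 and 1.02 at day 3, Rbfox3 of -0.43 and 0.55, and Syp, below the floor at day 6, of 0.31 at day 3, with the floor standing in for the dimmer array of Rbfox3 and Syp. The part of neuronal expression in those values was not tested. Of 8 adipocyte markers, 6 had a probe set annotated to that gene alone. Among these, Adipoq, Fabp4, Cidec, Lep and Lpl were below the floor on all arrays. So were Ptprc, Cd68, Adgre1, Itgam and Cd52 of 8 leukocyte markers. Retn, the remaining adipocyte marker, was above the floor on the normal arrays only, at 80.5 at day 6 and 67.3 at day 3. Lyz2, lysozyme of macrophages, had 223 in osteogenic and 526 in normal medium at day 6, 2.36-fold lower, and 322 in osteogenic and 337 in normal medium at day 3. Csf1r was at -0.11 at day 6 and -0.52 at day 3, and Laptm5 at 0.09 and -0.11. The summed leukocyte signal was 653 in osteogenic and 978 in normal medium at day 6, and 656 in osteogenic and 799.9 in normal medium at day 3, and its part in the members' values was not tested.

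Further genes around glycolysis showed a few larger differences at day 6 and none of 2-fold at day 3. In 6 lists of other enzymes and transporters, 4 of 60 measured genes were at least 2-fold higher and 3 at least 2-fold lower at day 6, against 4.18% and 2.78% of all genes, with a median of 0.03. Those higher were Pck2, the mitochondrial phosphoenolpyruvate carboxykinase (2.67-fold), Psph (2.25-fold) and Shmt2 (2.23-fold) of the serine and glycine branch that leaves glycolysis at 3-phosphoglycerate, and Rbks, ribokinase (at least 2.19-fold, below the floor in normal medium). Those lower were Pdp1, the phosphatase that reactivates pyruvate dehydrogenase and so opposes the Pdk kinases (2.48-fold), Gapdhs, the sperm form of Gapdh (at least 2.57-fold, below the floor in osteogenic medium), and Txnip. Txnip, an arrestin that removes GLUT1 from the cell surface, had 146 in osteogenic and 3328 in normal medium at day 6, and 1841 in osteogenic and 2591 in normal medium at day 3. At day 3, 0 of 61 passed 2-fold in either direction and the median was 0.01.

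Genes known as targets of hypoxia-inducible factor but outside glycolysis had a median log2 difference of 0.59 at day 6 and of -0.19 at day 3. Above zero were 10 of 12 at day 6, against 51.2% of all genes, and 5 of 12 at day 3, against 51%. At day 6, Vegfa, Car9 and P4ha2 were at least 2-fold higher, 3 of 12 against 4.18% of all genes. Car9 was below the floor in normal medium. At day 3 Ankrd37 was at least 2.09-fold lower, 1 of 12 against 1.58% of all genes. At least 2-fold the other way were 0 of 12 at either day.

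**Figure D4:**
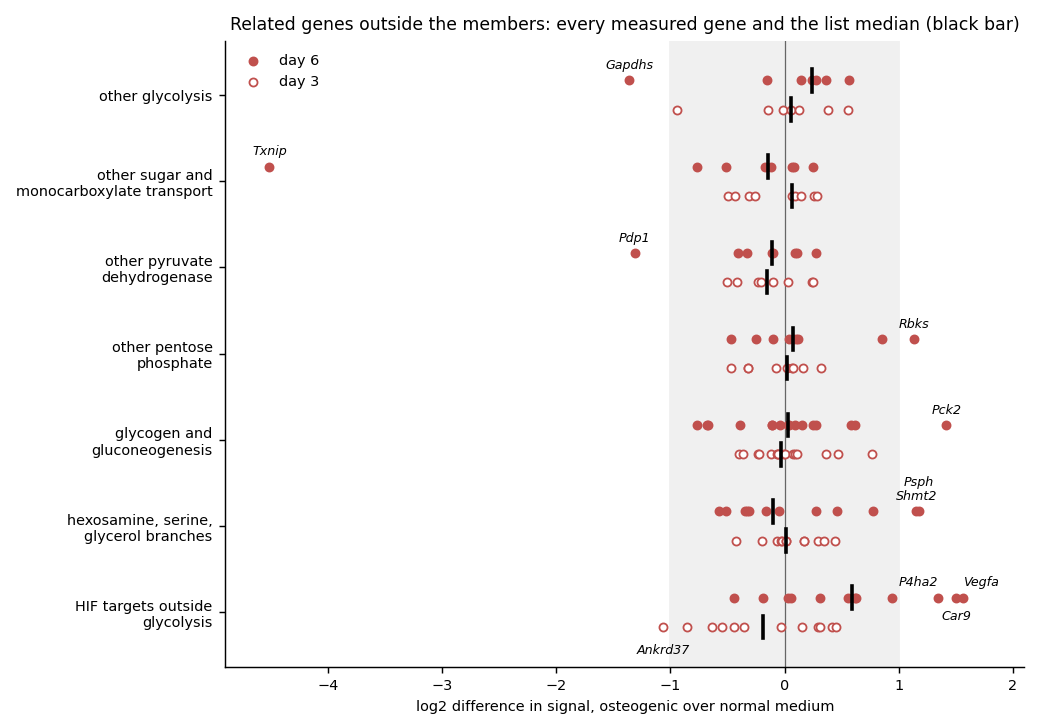
Log2 medium difference of every measured gene in 7 lists of related genes, with filled circles for day 6 and open circles for day 3, black bars for list medians and a grey band for differences under 2-fold; genes past 2-fold are named. Txnip lies far left at day 6, and the list of hypoxia-inducible factor targets has its medians at 0.59 at day 6 and -0.19 at day 3.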

How the data were processed

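The authors deposited 1 linear intensity per probe set and array. Per the labels' protocols, total RNA was turned into biotinylated cRNA by 3′ in vitro transcription. A mean trimmed by 2% at either end came to 500 on all 4 arrays, which shows a scaling made before deposit. The summary software is not given in the sources used here.

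The table held 45101 probe sets, 64 of them controls. Names came from GEO's platform annotation, with 34945 probe sets of 1 symbol, 932 of several and 9160 with none in the table used here. Control probe sets were used as a gene for Gapdh alone. Leaving controls aside, arrays were shifted to share their 75th percentile (factors 0.991, 0.988, 1.02 and 1.00 for osteogenic day 6, normal day 6, osteogenic day 3 and normal day 3), signals under the pooled 50th percentile were set to it, and log2 was taken. The brightest probe set by mean signal stood for a gene, which counted as measured if above the floor on 1 of the arrays compared. Where 1 of the groups was at the floor, the fold is a bound and is written "at least". Calls are at 2-fold. limma 3.58.1 in R 4.3.3 fitted medium and day, with Benjamini-Hochberg adjustment over all genes. The limma fit was tested on simulated data with the same medium effect added at both days. Scaling, the floor and the choice of probe set were not tested in this way. All members could be named, and outside them the genes past 2-fold between media in the lists and the markers given. The members and all gene lists were chosen with earlier results of these data known. Alternatives were other scalings, floors, a pseudocount, averaged probe sets and ordinary variances.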

Additional observations from a re-analysis of the deposited data

Results flagged for a closer look

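For 4 members, the difference between media ran in opposite directions at the 2 days, each by more than the probe error. From day 3 to day 6 it changed by 1.02 on the log2 scale for Hk2 and by 0.71 for Aldoa, both higher in osteogenic medium at day 6 and lower at day 3. It changed by -1.14 for Eno3 and by -1.62 for Pfkfb2, both lower in osteogenic medium at day 6 and higher at day 3. For Pfkfb2 it was -0.57 with averaged probe sets and -0.30 when the floor was raised to the 60th percentile. With 1 array per group these changes were not tested. The rule was applied to the members alone, so no share over all genes stands beside the 4. Hk2 and Eno3 have 1 probe set each.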

How the results depend on the processing

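Other scalings (none, a common median, quantile normalization), other floors (40th, 60th and 80th percentile), a pseudocount, averaged probe sets and ordinary variances gave 129 further values for the counts and medians of the members. Of these, 112 stayed close to the values reported and 17 differed, all of them small counts. A median counted as close if it moved by less than 0.1 (log2), which is wide beside medians this small. The day 3 median of 0.03 became -0.06 with the 80th percentile floor and -0.007 with quantile normalization, so its sign depends on the processing. The median change of the medium difference, 0.11, became 0.04 with a common median. For single members, 1156 values shifted by less than the probe error and 43 by more. A reversal of sign was looked for only in values of at least 2-fold, of which 0 reversed. Smaller values were not checked for a change of sign. Members at least 2-fold higher in osteogenic medium at day 6 numbered 1 with the floor at the 80th percentile, where 24 were measured. At day 3 they numbered 0 with the floor at the 60th or 80th percentile and 1 with averaged probe sets, so the day 3 results for Slc2a3 and Eno2 depend on the floor and, for Slc2a3, on the probe set. Members higher at day 6 than at day 3 numbered 0 in osteogenic medium with the 80th percentile floor, and in normal medium 2 with a common median and 0 with either higher floor or the pseudocount. The upward changes of the medium difference numbered 1 with a common median, the 80th percentile floor or the pseudocount, each without Hk2. They numbered 4 with averaged probe sets or quantile normalization. The downward ones numbered 1 with the 60th percentile floor or averaged probe sets, both without Pfkfb2, and 0 with the 80th. Higher floors leave fewer members measured, and the cause of the other shifts was not tested. Slc2a1 passed 2-fold at day 6 under 8 of 8 alternatives, and Slc2a3 and Eno2 under the 7 of 7 that measured them. Another scaling moved the median of all genes by at most 0.074 (log2). With the floor at the 80th percentile, limma's adjusted p for medium was under 0.05 for 13 of 5709 genes and 0 of 24 members. No paired analysis was possible because each group has 1 array, and for the same reason no array could be left out.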
